A study of Homo sapiens with 6 samples.

Results

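The D cyclins, their kinases and the inhibitors of these kinases were described here as a set of 10 genes, chosen by name and found among the 58302 genes of the series through GENCODE 29. The set held the D cyclins CCND1, CCND2 and CCND3, the kinases CDK4 and CDK6, their substrate RB1, the CIP/KIP inhibitors CDKN1A (p21) and CDKN1B (p27) and the INK4 inhibitors CDKN2A and CDKN2C (p18). All 10 genes had a value in all 6 samples. A mean of at least 1 FPKM, the minimum for testing, was reached by 9 of the 10 and by 14462 genes in all, and CCND2 was the member below it. The samples were cultures of SK-N-BE(2), a human neuroblastoma cell line with an amplified MYCN gene, transfected with small interfering RNA (siRNA). There were 3 samples with the negative control siRNA (NC) and 3 with siRNA against Prp19 (siPrp19), numbered 1 to 3 in each group. The labels give 72 h of transfection, whereas the methods of the study give a shorter time. The labels do not name the siRNA against Prp19, and the study says that the first of its siRNAs was taken on to the later assays. Prp19, encoded by PRPF19, is a ubiquitin ligase of the spliceosome, and the question addressed was how its knockdown altered mRNA levels in this line.

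In a cell that enters the cycle, growth signals raise the D cyclins, which bind CDK4 or CDK6. The active kinases phosphorylate RB1, which then releases the E2F factors that drive the genes of DNA synthesis. INK4 proteins bind CDK4 and CDK6 in place of a cyclin, and CIP/KIP proteins block the CDK2 complexes while they help to assemble those of CDK4 and CDK6. In neuroblastoma CCND1 is known for its high expression, and the balance of p21 and p27 against the cyclins is tied to whether the cells divide or differentiate.

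The values were FPKM, the fragments per kilobase of exon scaled between samples, so levels can be compared between genes per length. Their median-of-ratios size factor, the median over genes of the ratio to the gene's geometric mean, was 1.00736 in all 6 samples. The values were thus scaled so that the typical gene did not differ between samples, and a shift of all mRNA could not show. Between 19058784 and 24181789 reads on genes lay behind each sample, as recovered from the steps between the FPKM values. Of PRPF19, the targeted gene, 41.0%, 53.6% and 51.7% of the NC level was left in pairs 1, 2 and 3, with 53.1 to 64.9 FPKM in NC and 21.8 to 33.6 FPKM in siPrp19. Same-numbered samples of NC and siPrp19 deviated from their group means in the same direction (r = 0.38, 0.57 and 0.64 across genes for replicates 1, 2 and 3), and replicate 3 of both groups stood apart from the other samples. The number therefore paired the samples, and changes are given within pairs. Of the 9 adrenergic neuroblastoma markers all were measured above 1 FPKM, led by MYCN (992 FPKM in NC), with sums of 2102 to 2225 FPKM in NC and 1970 to 2559 FPKM in siPrp19. Of the 9 mesenchymal markers 8 passed the minimum, led by VIM (197 FPKM in NC), with sums of 432 to 594 FPKM in NC and 433 to 548 FPKM in siPrp19, and 4 of the 8 were lower in limma voom fitted to the reads with a term for the pair (FDR under 0.05), beside 4.6% of all genes. Of the 6 fibroblast and immune markers 3 passed it, led by LUM (51.8 FPKM in NC), while PTPRC, CD68 and PECAM1 lay below it, with sums of 50.02 to 64.1 FPKM in NC and 49.6 to 62.6 FPKM in siPrp19. The part of such shifts in the results was not tested, and in bulk RNA fewer cells with an mRNA and less of it per cell cannot be told apart.

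In the control cells the set was led by CCND1, with a mean of 215 FPKM, which placed it at the 99.1st percentile of the tested genes. CDKN1B (83.2 FPKM), CDK4 (49.2 FPKM), CDKN2C (33.9 FPKM) and CDK6 (26.5 FPKM) followed, and the NC ranges of neighbours in this order did not overlap. A lower tier held CDKN1A (8.13 FPKM), RB1 (6.61 FPKM), CCND3 (5.76 FPKM) and CDKN2A (4.25 FPKM), whose neighbours did overlap. CCND2 was last and close to absent. The first 5 places were the same in siPrp19, again with ranges that did not overlap, and in the lower tier the order became RB1, CCND3, CDKN1A and CDKN2A, with overlapping neighbours. Within the set, each of the 2 inhibitor families thus had a strongly and a weakly expressed member in these cells, and so did the D cyclins.

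**Figure D1:**
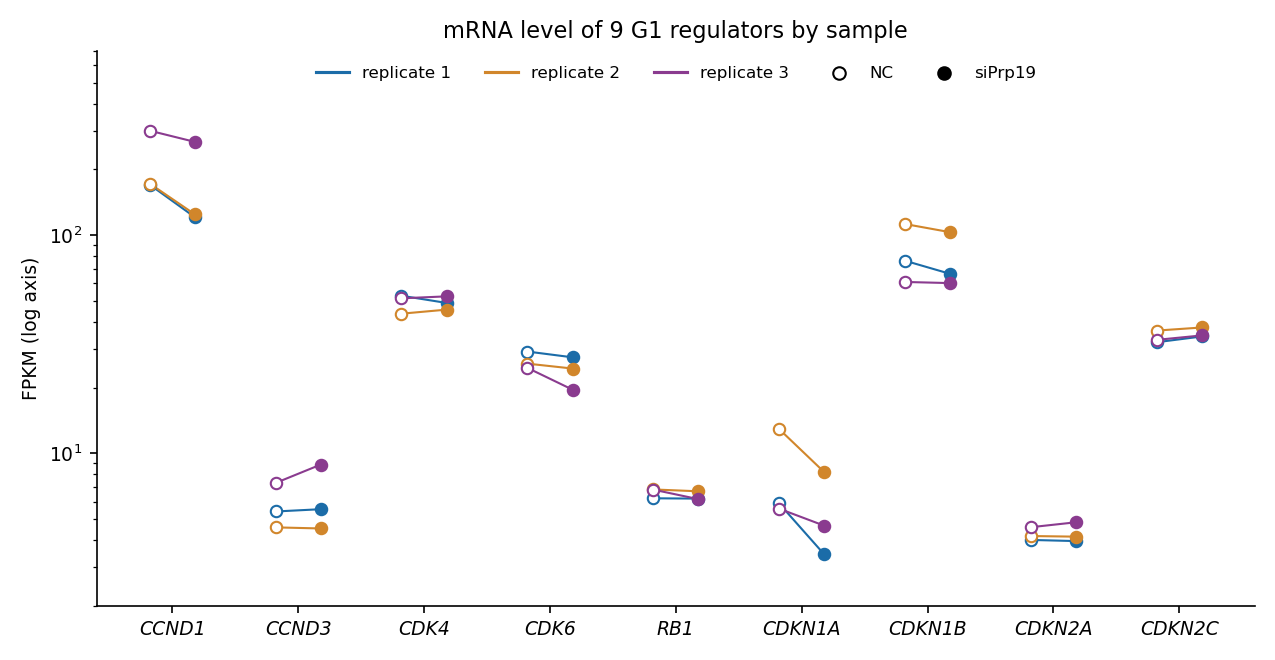
FPKM (log axis) of the 9 measured genes in each sample, with open points for NC, filled points for siPrp19 and a line joining the samples of 1 replicate number. CCND1 lies highest in every sample, replicate 3 is its highest sample in both groups, and replicate 2 is the highest for CDKN1A and CDKN1B in both groups.

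The comparison of siPrp19 with NC showed its largest differences in CCND1 and CDKN1A, both lower in all 3 pairs, and mean differences within 0.17 on the log2 scale for the other genes. Over the groups as wholes, no member separated: the NC and siPrp19 values overlapped for all 9, where 2.84% of tested genes were lower and 2.77% higher without overlap. limma without the replicate block called 0 of 14462 genes (0.0%) at a false discovery rate (FDR) under 0.05, with 225 at an unadjusted p under 0.05. With the replicate block limma also called 0 (0.0%), with 2265 at an unadjusted p under 0.05. Neither fit called PRPF19, the targeted gene, whose change was -1.04 (FDR 0.190 with the block). With the block and a minimum mean of 5 FPKM limma called 124 genes (1.57%), with PRPF19 among them (FDR 0.0176) and none of the members. When the reads were recovered and fitted by limma voom with the block, 1093 of 14432 genes (7.57%) were called, of which 664 (4.6%) were lower and 429 (2.97%) higher, and 2 of the 9 members, CCND1 and CDKN1A, were among the lower ones. Within pairs, 5 of the 9 members were lower in all 3 pairs, namely CCND1, CDK6, RB1, CDKN1A and CDKN1B, where 21.3% of tested genes were. CDKN2C alone among the 9 was higher in all 3 pairs, where 19.2% of tested genes were. The median change was -0.06 over the members and -0.0040 over all tested genes, on the scale of log2(FPKM + 0.1). The median over all tested genes is held near 0 by the scaling of the values. The median size of the change was 0.098 over the members and 0.103 over all tested genes.

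**Figure D2:**
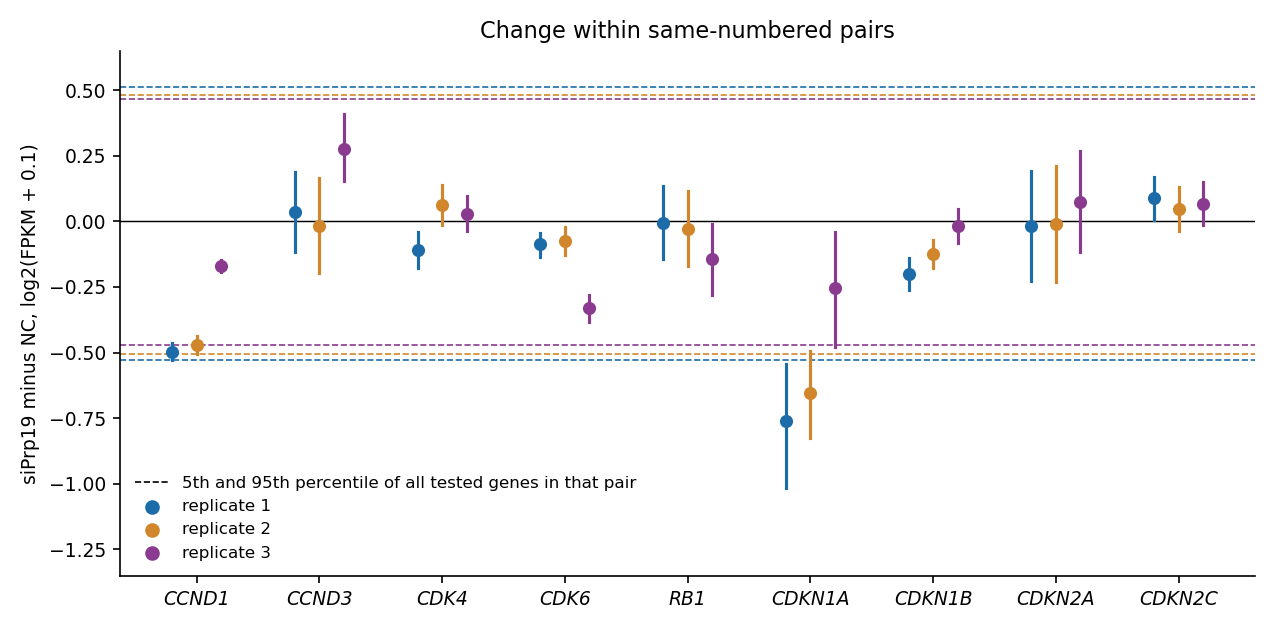
Change from NC to siPrp19 (difference in log2(FPKM + 0.1)) in replicate pairs 1, 2 and 3 for each measured gene, with bars for the 95% exact interval of the ratio of recovered reads (counting error only) and dashed lines, in the colour of each pair, at the 5th and the 95th percentile of all tested genes in that pair (5th percentile -0.53, -0.51 and -0.47 in pairs 1, 2 and 3). The 3 pairs of CCND1 and of CDKN1A lie below 0 with their bars, with CCND1 pairs 1 and 2 (-0.50 and -0.47) just inside the lines of their pairs and CDKN1A pairs 1 and 2 outside.

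CCND1 (ENSG00000110092, plus strand, chr11:69641087-69654474 on GRCh38), the main D cyclin of these cells, had 170.4, 172 and 301 FPKM in NC replicates 1, 2 and 3 and 121, 124 and 267 FPKM in siPrp19. Replicate 3 was the highest sample of each group, and the siPrp19 value of replicate 3 lay above the NC values of replicates 1 and 2, so the groups overlapped. Within pairs 70.8%, 72.2% and 88.8% of the NC level was left, and the counting intervals, which rest on 12488 to 32040 reads per sample, lay below 0 in all 3 pairs, as they did for CDK6 and CDKN1A (3 of 9 members) and for 5.96% of the 12354 tested genes with more than 30 reads in each sample. A more negative mean change was found for 4.65% of all tested genes. The change was -0.38 (SE 0.38) in limma without the block, with an FDR of 1.00, and an exact permutation test of the 3 NC against the 3 siPrp19 values (two-sided) gave p = 0.5, where 0.1 is the smallest p possible. With the block the SE was 0.076 and the FDR 0.202, and in voom with the block the change was -0.37 with an FDR of 2.2e-05, which made voom with the block the 1 type of fit that called it. In that fit it passed also without replicate 1, 2 or 3 of both groups, with changes of -0.31, -0.33 and -0.48. With only 2 pairs left, the error there came almost wholly from the spread pooled over genes, not from CCND1 itself. Without the same replicates limma with the block gave FDRs of 0.522, 0.362 and 0.244. Exons of LTO1 on the opposite strand (3.64 FPKM) cover 10.3% of the exon bases of CCND1, and no source used here says that reads were counted by strand.

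CCND2 (ENSG00000118971, plus strand, chr12:4273772-4305350), which takes the place of CCND1 in some other cell types, was covered by 1, 5 and 1 reads in NC and by 4, 0 and 2 reads in siPrp19. Its highest value was 0.0397 FPKM, where 3 reads correspond to 0.0169 to 0.0238 FPKM depending on the sample, so no fold change is given. A difference in CCND2 was not detectable at this depth.

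CCND3 (ENSG00000112576, minus strand, chr6:41934933-42050357), the third D cyclin, had 5.40, 4.57 and 7.30 FPKM in NC and 5.54, 4.52 and 8.87 FPKM in siPrp19. Replicate 3 was the highest in both groups, as for CCND1, but here siPrp19 was the higher sample of that pair. The pair changes were 0.03, -0.02 and 0.28, and only the counting interval of pair 3 (0.15 to 0.41) lay off 0. The mean change of 0.10 (SE 0.29, limma FDR 1.00, with the block 0.595) turned to -0.17 without siPrp19 replicate 3 and to -0.05 without NC replicate 2.

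Because the D cyclins share the same kinases, their proportions were also compared within each sample, a measure that no scaling between samples can alter. CCND1 made up 96.9%, 97.4% and 97.6% of the summed D cyclin FPKM in NC replicates 1, 2 and 3 and 95.6%, 96.5% and 96.8% in the siPrp19 replicates. Every siPrp19 sample lay below every NC sample. The share was 97.3% ± 0.361 (SD, n = 3) in NC and 96.3% ± 0.621 (SD, n = 3) in siPrp19, a difference of -1.02 percentage points (exact permutation test, two-sided, p = 0.1, the smallest p that 3 against 3 samples allow). With 1 sample left out the difference ranged from -0.675 points (without siPrp19 replicate 1) to -1.27 points (without siPrp19 replicate 3). The rest of the sum was CCND3, as CCND2 added at most 0.0397 FPKM.

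CDK4 (ENSG00000135446, minus strand, chr12:57747727-57756013), the main D cyclin kinase here, had 52.7, 43.6 and 51.3 FPKM in NC and 48.8, 45.5 and 52.4 FPKM in siPrp19. Replicate 2 was the lowest of both groups, and the groups overlapped over nearly their whole range. The means were 49.2 ± 4.90 FPKM and 48.9 ± 3.42 FPKM (SD, n = 3 each), with a change of -0.01 (SE 0.13, limma FDR 1.00). With the block the SE was 0.052 and the FDR 0.961. The sign of so small a change turned without NC replicate 1 (0.05), NC replicate 3 (0.03) or siPrp19 replicate 2 (0.04). On the opposite strand the exons of TSPAN31 (3.997 FPKM) cover 43.2% of the exon bases of CDK4, so part of its reads could belong to either gene.

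CDK6 (ENSG00000105810, minus strand, chr7:92604921-92836594), the second D cyclin kinase, had 29.3, 25.7 and 24.6 FPKM in NC and 27.5, 24.4 and 19.6 FPKM in siPrp19. Replicate 3 was the lowest sample of each group, the reverse of CCND1, and siPrp19 was the lower sample of every pair. The pair changes were -0.09, -0.07 and -0.33, all with counting intervals below 0. The mean change of -0.16 (SE 0.16, limma FDR 1.00) had an FDR of 0.338 with the block and of 0.0655 in voom with the block, where it was -0.07 without replicate 3 of both groups. In limma without the block it ranged from -0.28 (without siPrp19 replicate 1) to -0.03 (without siPrp19 replicate 3). CDK4 accounted for 64.9% ± 2.40 (SD, n = 3) of the summed FPKM of both kinases in NC and for 67.3% ± 4.82 (SD, n = 3) in siPrp19 (exact permutation test, two-sided, p = 0.6). That difference of 2.37 points rested on siPrp19 replicate 3, where the share was 72.8%, and was -0.398 points without it.

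RB1 (ENSG00000139687, plus strand, chr13:48303726-48599436), the substrate that the kinases inactivate, was among the steadiest genes of the set. It had 6.21, 6.82 and 6.81 FPKM in NC and 6.19, 6.69 and 6.16 FPKM in siPrp19, and the groups overlapped. The change was -0.06 (SE 0.11, limma FDR 1.00, with the block 0.678), and the spread between replicate numbers, 0.12 on the log2 scale, did not exceed its error (replicate term FDR 0.41). Its values gave whole reads for a gene length of 6169 bases instead of the 6452 of the annotation, and 741 to 942 reads per sample at that length.

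CDKN1A (ENSG00000124762, plus strand, chr6:36676460-36687339) encodes p21, an inhibitor that halts the cycle after DNA damage. It had 5.89, 12.9 and 5.57 FPKM in NC and 3.43, 8.18 and 4.65 FPKM in siPrp19. Replicate 2 was the highest sample of each group by a wide margin, and siPrp19 replicate 2 lay above NC replicates 1 and 3. Within pairs 58.3%, 63.3% and 83.5% of the NC level was left, with changes of -0.76, -0.65 and -0.25 and counting intervals of -1.02 to -0.54, -0.83 to -0.49 and -0.48 to -0.04. A more negative mean change was found for 2.56% of all tested genes, and the lowest library gave 238 reads. The mean change was -0.56 (SE 0.42) with a limma FDR of 1.00 and an exact permutation p of 0.5 (two-sided). The block brought the SE to 0.11 and the FDR to 0.202, and voom with the block gave -0.57 with an FDR of 0.00033. In that fit CDKN1A passed also without replicate 1, 2 or 3 of both groups, with changes of -0.50, -0.51 and -0.70, again with an error pooled over genes. Without the same replicates limma with the block gave FDRs of 0.518, 0.368 and 0.244.

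CDKN1B (ENSG00000111276, plus strand, chr12:12715058-12722371) encodes p27, the inhibitor that accumulates in resting and differentiating cells. It had 76.3, 112 and 61.0 FPKM in NC and 66.4, 103 and 60.2 FPKM in siPrp19, so that its order over the replicate numbers was the same in both groups, with replicate 2 highest and replicate 3 lowest. The pair changes were -0.20, -0.12 and -0.02, and the interval of pair 3 included 0. The mean change of -0.11 (SE 0.29, limma FDR 1.00) had an FDR of 0.362 with the block and of 0.210 in voom with the block. Without the block it turned to 0.13 when NC replicate 2 was left out and to 0.04 when siPrp19 replicate 3 was.

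CDKN2A (ENSG00000147889, minus strand, chr9:21967753-21995301) encodes p16 and, in another reading frame, p14ARF, and its values are sums over the transcripts of both. It had 4.003, 4.17 and 4.58 FPKM in NC and 3.95, 4.14 and 4.82 FPKM in siPrp19, and the intervals of all 3 pairs included 0. The change was 0.02 (SE 0.14, limma FDR 1.00) and was -0.03 without NC replicate 1 and -0.07 without siPrp19 replicate 3.

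CDKN2C (ENSG00000123080, plus strand, chr1:50960745-50974633), which encodes the INK4 inhibitor p18, was the most strongly expressed INK4 gene measured here. It had 32.3, 36.5 and 33.1 FPKM in NC and 34.3, 37.7 and 34.7 FPKM in siPrp19, with siPrp19 higher in all 3 pairs by 0.09, 0.05 and 0.07. Only the interval of pair 1 lay above 0, and the mean change of 0.07 (SE 0.11, limma FDR 1.00) had an FDR of 0.487 with the block.

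Over the 9 genes and 3 pairs, the counting interval lay below 0 in 13 of 27 cases, above 0 in 2 and included 0 in 12. Over the 12354 tested genes with more than 30 reads in each sample, 21.9% of such intervals lay below 0 and 19.5% above. These intervals leave out the spread between cultures and are narrower for genes with many reads, as most of the members are, so the count is a description. The range between replicate numbers, from highest to lowest, was larger than the size of the mean knockdown difference for all 9 members. Over all tested genes the median range (0.46) was likewise larger than the median size of the change (0.103), so this too is a description. Averaged over both groups, the levels of CDKN1A, CCND1, CDKN1B and CCND3 differed by 1.17, 0.98, 0.83 and 0.81 on the log2 scale between the highest and the lowest replicate number, where the median of all tested genes was 0.46. CDK6 differed by 0.37, CDKN2A by 0.23, CDK4 by 0.22, CDKN2C by 0.16 and RB1 by 0.12. The replicate term passed an FDR of 0.05 in limma for 5 of the 9 members, CCND1, CCND3, CDK6, CDKN1A and CDKN1B, where 49.6% of tested genes passed, and in voom for 6, with CDK4 added, where 64.2% did. For 8 of the 9 the same replicate number was the highest in both groups, where this held for 72.4% of tested genes. A related inhibitor outside the set, CDKN1C (p57), was picked after its values were seen. It had 103, 132 and 11.9 FPKM in NC and 93.8, 119 and 14.4 FPKM in siPrp19, a range of 3.25 over replicate numbers at the 99.2nd percentile of tested genes.

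**Figure D3:**
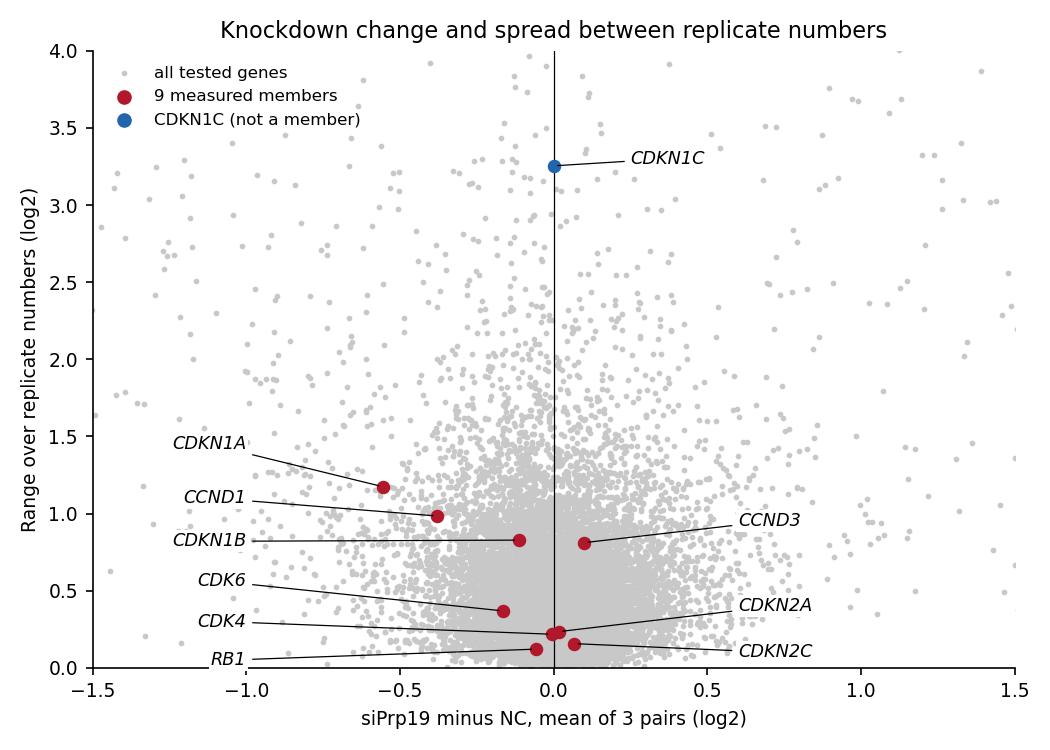
Mean change from NC to siPrp19 over the 3 pairs (horizontal, log2) against the range between replicate numbers of the level averaged over both groups (vertical, log2), for all tested genes (grey, with 161 outside the plotted range), the 9 measured members (red) and CDKN1C (blue). CDKN1A and CCND1 lie left of the dense part, and 4 members have a range above 0.8.

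The genes whose levels over the 6 samples were most like those of the leading cyclin, kinase and inhibitor were found by Pearson correlation of log2(FPKM + 0.1), a description of 6 points that share replicate numbers. For CCND1 they were PDE6D (r = 0.995), WLS (r = 0.994) and VPS50 (r = 0.994), and 833 genes in all had r above 0.9. For CDK4 they were TRMT61A (r = 0.991), AC078906.1 (r = 0.988) and HERC2P2 (r = 0.987), with 263 genes above 0.9. For CDKN1B they were RAP2B, LYSMD3 and ANO6 (r = 0.998 each), with 1398 genes above 0.9. PDE6D showed the same pattern as CCND1 in its values, with 8.28, 7.85 and 11.0 FPKM in NC and 6.55, 6.73 and 10.6 FPKM in siPrp19.

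Promoter sequence was examined for the letters of common motifs. RefSeq promoters (GRCh38.p14) were matched for 8 of the 10 genes, with 14 windows of 250 bases before an annotated start. They were compared with all 35116 such windows. The RB1 window (chr13:48476200-48476449) lies inside the gene span given above, and so do the windows shown for CDKN1A, CDKN1B and CDK4. All CCND3 windows and some of the windows of CDK6, CDKN2A and CDKN2C lie inside the gene spans as well. Both strands were searched. The Sp1 GC box was searched as GGGCGG and stood in 42.6% of all windows. The CCAAT box was searched by its own letters and stood in 32% of them. The E-box, the core that MYC family proteins bind, was searched as CACGTG and stood in 6.34% of them. The E2F site was searched as TTTNNCGC and stood in 5.92% of them. Shown are windows of the inhibitors of the set that differed most between replicate numbers and of the steadier CDK4. They are CDKN1A (chr6:36678464-36678713, plus strand), CDKN1B (chr12:12717118-12717367, plus strand) and CDK4 (chr12:57752311-57752560, minus strand). Each runs 5′ to 3′ along the gene, with motif letters in capitals.
CDKN1A: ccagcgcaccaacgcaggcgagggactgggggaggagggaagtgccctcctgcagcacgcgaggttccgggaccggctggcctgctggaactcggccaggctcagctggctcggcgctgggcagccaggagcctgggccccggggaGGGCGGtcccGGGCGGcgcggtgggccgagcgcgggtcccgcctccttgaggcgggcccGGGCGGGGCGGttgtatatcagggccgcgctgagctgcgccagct
CDKN1B: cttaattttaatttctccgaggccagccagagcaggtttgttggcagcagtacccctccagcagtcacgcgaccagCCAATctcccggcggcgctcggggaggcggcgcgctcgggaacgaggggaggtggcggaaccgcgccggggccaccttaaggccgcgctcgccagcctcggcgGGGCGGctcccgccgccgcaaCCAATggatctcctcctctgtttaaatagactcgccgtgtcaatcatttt
CDK4: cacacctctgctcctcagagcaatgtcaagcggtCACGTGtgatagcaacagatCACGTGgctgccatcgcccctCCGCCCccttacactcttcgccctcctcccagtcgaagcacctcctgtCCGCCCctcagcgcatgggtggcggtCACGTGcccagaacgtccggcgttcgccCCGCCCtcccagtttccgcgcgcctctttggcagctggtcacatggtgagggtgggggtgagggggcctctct
The CDKN1A window held 4 GC boxes, 2 of them overlapping (at least 4 in 7.63% of windows), and no match to the other 3. The CDKN1B window held 2 CCAAT boxes (at least 2 in 9.53% of windows) and 1 GC box. The CDK4 window held 3 GC boxes (at least 3 in 13.9% of windows) and 3 E-boxes, where at least 3 E-boxes stood in 0.0797% of windows. It held the most E-boxes of the 14 windows searched, so that share belongs to the extreme of a search. Letters of the TATA box, CRE, AP-1 and TEAD sites were searched too and had no match in the windows shown. These matches describe letters and say nothing of binding in these cells.

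Around the set, 57 genes of the same pathway were followed in 4 lists, of which 54 passed the minimum level. Limma called 0 of them with and without the block. In voom with the block 4 were lower and 0 higher, beside 4.6% and 2.97% of all genes. In all 3 pairs 19 were lower and 6 higher, beside 21.3% and 19.2% of tested genes, and 35 of the 54 had a mean change below 0.

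The E2F target genes carry out DNA synthesis. In all 3 pairs 8 of 15 were lower and 0 higher, beside 21.3% and 19.2% of all tested genes. Their median change was -0.10, beside -0.0040 over all tested genes, which the scaling holds near 0. In voom with the block 2 of the 15, TYMS and MCM4, were lower. TYMS, which makes the thymidylate for DNA synthesis, had 11.0, 10.1 and 11.4 FPKM in NC and 6.90, 6.78 and 8.01 FPKM in siPrp19, so that every siPrp19 sample lay below every NC sample. Its change was -0.58 (SE 0.12, limma FDR 1.00, with the block 0.190, voom with the block FDR 7.3e-05), although exons of ENOSF1 on the opposite strand (1.92 FPKM) cover 39.1% of its exon bases. MCM4, a part of the replicative helicase, changed by -0.21 (voom with the block FDR 0.0098). The 2 targets with the highest positive changes were RRM2 (0.15) and CDT1 (0.08), with FDRs of 0.375 and 0.526 in the same fit.

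The other G1 cyclin, CDK and inhibitor genes showed 2 of 10 lower in all 3 pairs and 0 higher, with a median of -0.0018. CDK2, the kinase that p21 and p27 inhibit, had 11.8, 10.6 and 14.0 FPKM in NC and 8.96, 9.88 and 11.9 FPKM in siPrp19, lower in each pair while the groups overlapped. Its change of -0.24 had an FDR of 0.249 in limma with the block and 0.033 in voom with the block. CDK7, a part of the kinase that activates CDKs, had -0.10, and CCNE2 and CDKN2D had 0.10 and 0.05, none with a call. CDKN2B, the INK4 neighbour of CDKN2A, did not reach the minimum level.

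The partners of RB1, its relatives RBL1 and RBL2 and the E2F and DREAM genes, showed 4 of 16 lower in all 3 pairs and 2 higher, with a median of -0.06 and 0 calls in voom with the block. The most negative were the repressor E2F7 (-0.24, FDR 0.166) and RBL1 (-0.15, FDR 0.250), and the most positive were the activator E2F2 (0.17, FDR 0.138) and LIN52 (0.12, FDR 0.632), with FDRs from voom with the block.

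Among the genes that control the turnover of D cyclins and p27, 5 of 13 were lower and 4 higher in all 3 pairs, with a median of 0.02. SKP2, which targets p27 for degradation, was the 1 gene called in voom with the block (change -0.26, FDR 0.0048), with 27.9, 24.1 and 29.9 FPKM in NC and 23.0, 20.2 and 25.6 FPKM in siPrp19 and changes of -0.28, -0.26 and -0.23 in pairs 1, 2 and 3. CUL4A had -0.14, and FBXW7 and AMBRA1, the latter a receptor for the degradation of D cyclins, had 0.16 and 0.15, with FDRs of 0.120 to 0.184.

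**Figure D4:**
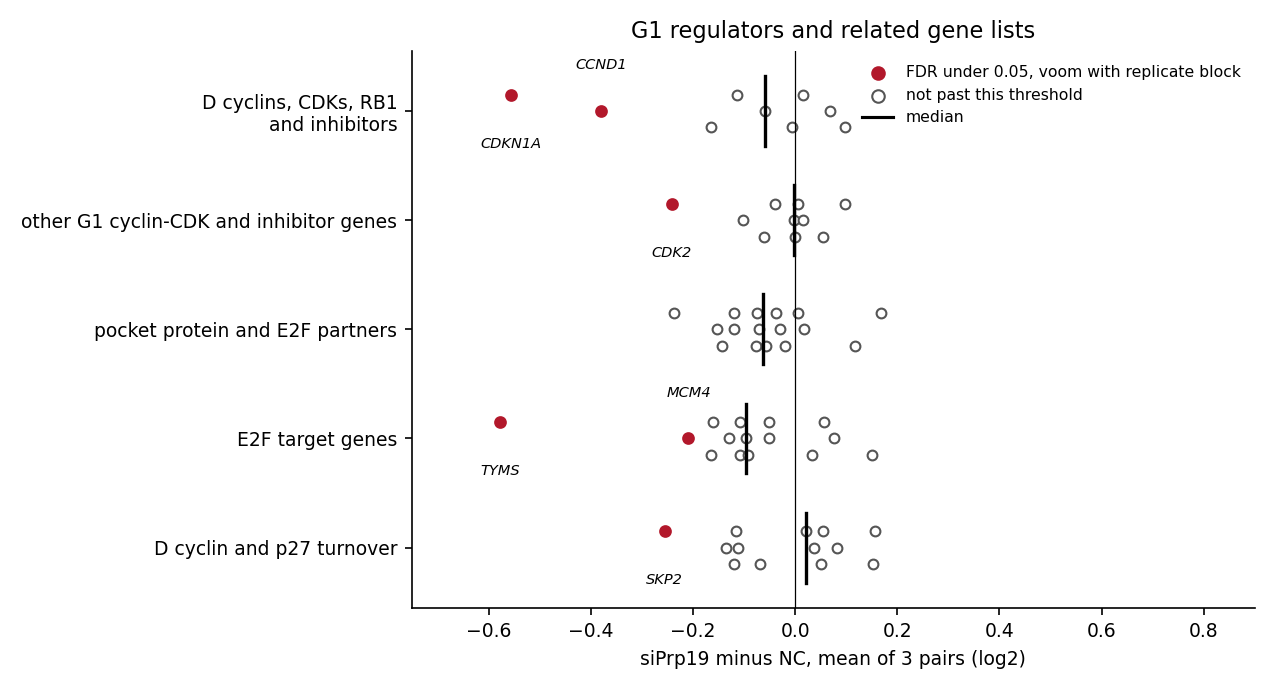
Mean change from NC to siPrp19 over the 3 pairs (log2) of each measured gene, by list, with red points for genes with an FDR under 0.05 in voom with the replicate block, open points for the others and a black line at the median of each list. The medians lie between -0.10 and 0.02, and the called genes lie on the negative side.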

How the data were processed

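RNA-seq was available for 3 NC and 3 siPrp19 samples, grouped by their labels. The authors deposited 1 table of FPKM values per sample; the submitters' processing notes name HISAT2 2.0.5, featureCounts 1.5.0-p3 and hg38, and the study's methods name DESeq2 for its own test. The kit is not stated to mark strand, and the strand setting is not given in the sources used here. Gene identifiers (58039 of 58302) and exon lengths came from GENCODE 29. Reads were recovered by dividing FPKM times length by the step of each sample, and 95.9% of the 37521 genes above 0 were whole (within 0.05 reads) in all 6 samples, with 19058784 to 24181789 reads on genes.

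FPKM values were turned into log2(FPKM + 0.1), on which the change of low genes is understated. Genes whose mean over the 6 samples reached 1 FPKM were tested with limma 3.58.1 (R 4.3.3, eBayes with trend) without a block, since the methods name none, with Benjamini-Hochberg adjustment over all tested genes. The SE is that of this fit. The replicate number came from the labels; same-numbered samples correlated at r = 0.38, 0.57 and 0.64 in their deviations (all above 0.1), so it paired the samples. Alternatives were the block, voom on the recovered reads, a pseudocount of 1, no filter, a mean of at least 5 FPKM, TPM, quantile normalization and each replicate left out; leaving out a replicate in voom with the block was added after seeing the data. Intervals are exact (Clopper-Pearson, 95%) and cover counting error only. The intervals were computed with scipy 1.17.1, and permutation tests counted all arrangements of the samples. The fits were run on simulated data with planted changes larger than those of the members, so that run does not show how they handle changes of the members' size. Replicates were biological per the study's methods.

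The 10 genes and the lists were chosen with earlier results of these data known. Named besides the members were PRPF19, the 2 largest rises and falls of each list, and the 3 genes most like the highest cyclin, kinase and inhibitor. 1 further gene list and some single genes are not reported here. No protein sequences were used here.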

Additional observations from a re-analysis of the deposited data

How the results depend on the processing

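The count of genes at an FDR under 0.05 was 0 in limma without the block and stayed 0 with a pseudocount of 1, without a filter, with a mean of at least 5 FPKM, as TPM, after quantile normalization, in voom without the block, and with each of the 6 samples left out (0 to 0). With the replicate block it was 0, with the block and a pseudocount of 1 also 0, with the block and a mean of at least 5 FPKM 124 (fewer genes were tested), and in voom with the block 1093. Without replicate 1, 2 or 3 of both groups the last count was 280, 633 and 1363, and that of limma with the block 0 to 0. The replicate block thus changed the call of CCND1 and CDKN1A, and of PRPF19, and only in some fits: in limma with the block the FDR was 0.0507 to 0.522 for CCND1 and 0.0554 to 0.518 for CDKN1A over its settings, while PRPF19 passed with a mean of at least 5 FPKM (-1.04, FDR 0.0176). The block changed no other call of a member.

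Over the members' alternatives, 174 kept direction and side of the threshold, 8 passed it newly and 14 turned in sign, all 14 in CCND3, CDK4, CDKN1B and CDKN2A, whose changes are small. With 1 sample left out, the change of CCND3 ranged from -0.173 to 0.306, that of CDK4 from -0.0904 to 0.0459, that of CDKN1B from -0.349 to 0.126 and that of CDKN2A from -0.0666 to 0.0734, and the share of CDK4 among both kinases differed by -0.398 to 4.03 points. CDK4 was 0.0160 after quantile normalization and, without replicate 1, 0.0457 in the block fit and 0.0404 in voom with the block. CDKN2A was -0.0132 in the block fit, and -0.0050 in voom with the block, without replicate 3. The size of the CCND1 change ran from -0.75 (without siPrp19 replicate 3) to -0.11 (without NC replicate 3) and that of CDKN1A from -0.89 (without siPrp19 replicate 2) to -0.17 (without NC replicate 2). The cause of these shifts was not tested. At the depth of these libraries CCND2 could not be compared.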
